A study of Saccharomyces cerevisiae with 18 samples.

Results

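The genes described here are 76 ribosome biogenesis factor genes of budding yeast (Saccharomyces cerevisiae), of 7126 genes in the deposited table. They were chosen by name only: a symbol made of UTP, NOP, RRP, NOC, NSA, NOG, NUG, RLP, ENP, RPF, SSF or RIX and a number, or the symbols IMP3, IMP4, ERB1, BRX1 and DIP2. No expression value entered that rule. All 76 genes passed the filters on low values, which left 5686 genes in the comparisons of total extracts and 5664 genes in those of ribosome fractions.

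RNA was sequenced from 3 strains of a BY background grown to log phase at 30 °C, 2 cultures of each, and every culture gave 3 libraries (18 in all). WT carried the chromosomal genes of ribosomal protein uL30, RPL7A and RPL7B. The names R28P-30A and R28P-30B stand for plasmids in which the RPS28A promoter drives the cDNA of uL30A or of uL30B, with an ADH1 terminator. According to the study's methods, the strains with these plasmids lack both chromosomal copies (rpl7a::URA3, rpl7b::KMX) and keep the plasmid by LEU2. Which clone of each was sequenced is not given in the sources used here. The labels give the medium both as YC and as synthetic minimal. Poly(A)-selected RNA was sequenced from total extract, from light gradient fractions (40S and 60S subunits with 80S monosomes) and from heavy polyribosomes (labelled Poly2+Poly3).

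In yeast, ribosomal RNA is transcribed in the nucleolus as a long precursor that is folded, modified, cut and packed with ribosomal proteins by a large set of assembly factors. The UTP-A, UTP-B and UTP-C subcomplexes and the U3 small nucleolar RNA with its proteins build the small subunit processome on the 5′ part of the precursor. A second set of factors assembles the large subunit precursor, from early nucleolar particles to the late particles that leave the nucleus. The exosome trims 3′ ends. Genes for these factors are known as the ribosome biogenesis regulon, whose promoters often hold 2 elements, PAC and RRPE.

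Both promoter elements were searched for before the 76 genes. The PAC letters GATGAG, on either strand, stood in the 250 bases before the coding start of 64 of 76 genes (84.2%), against 1022 of 6012 coding genes (17.0%). The RRPE letters AAAAATTT, on either strand, stood there in 60 of 76 (78.9%), against 806 of 6012 (13.4%). Both were found for 51 of 76 genes (67.1%) and for 299 of 6012 (4.97%). Pairs whose letters overlap were not counted as a pair. For 35 of 76 genes (46.1%) both lay within 30 bases, against 173 of 6012 (2.88%), and the RRPE letters were the ones farther from the coding start in 45 of the 51 pairs (88.2%), against 187 of 299 (62.5%). The median distance from the coding start was 120 bases for PAC and 138 bases for RRPE, close to the 125 and 138 bases over all coding genes with both. The letters say nothing of binding, which was not measured.

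Stretches of 30 bases from the RefSeq sequence of build R64 are shown for genes whose values are described below, read 5′ to 3′ on the strand of the gene, with both motifs in capitals. UTP20, UTP10, RRP5 and DIP2 differed in opposite directions between the strains in their heavy to light ratio. UTP14, NOP4 and NOP1 were the highest in that ratio in WT, NOP10, IMP3 and UTP6 the lowest. UTP18 and UTP11 were lower in R28P-30B total extracts, RRP17 had a lower ratio there, and NOG1 was lower in light fractions under the R28P-30A label.
UTP20, chrII:227447-227476, plus strand: ttccgaAAATTTTTaccGATGAGcattgaa
UTP10, chrX:217400-217429, minus strand: gaaAAAAATTTtcagttagcGATGAGctag
RRP5, chrXIII:731267-731296, minus strand: attttgAAAAATTTtaaGATGAGatgagct
DIP2, chrXII:399526-399555, plus strand: acgcGATGAGcagtggaAAATTTTTcagaa
UTP14, chrXIII:82974-83003, plus strand: aAAATTTTTcaaattcctatggcGATGAGc
NOP4, chrXVI:469798-469827, plus strand: tgAAAAATTTcaagagtctatCTCATCtca
NOP1, chrIV:427138-427167, plus strand: aaAAATTTTTcaaattggaaagCTCATCtc
NOP10, chrVIII:241531-241560, plus strand: gaaAAAAATTTcaagttatgCTCATCactc
IMP3, chrVIII:393430-393459, plus strand: aaAAAAATTTcactgatataagCTCATCgc
UTP6, chrIV:1359001-1359030, minus strand: AAATTTTTtagaaagatctgggcGATGAGc
UTP18, chrX:312769-312798, minus strand: aaataaAAAAATTTcacCTCATCtcatcga
UTP11, chrXI:256598-256627, minus strand: atgAAATTTTTttatggctaGATGAGctca
RRP17, chrIV:1294552-1294581, plus strand: tttgAAATTTTTcaaatgtGATGAGgatcg
NOG1, chrXVI:370830-370859, plus strand: cgcagCTCATCgcaaagAAAAATTTtcacc
In these stretches the RRPE letters precede the PAC letters except before DIP2 and NOG1. The genes with neither motif in the window were UTP22, RRP45 and RRP46. Of the 7 exosome genes that the name rule matches only RRP40 had both. Among exosome genes that it does not match, DIS3, MTR3 and CSL4 had both. RRP3 and SSF1 lie head to head on chromosome VIII with 297 bases between their coding starts, so their windows share bases.

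**Figure D1:**
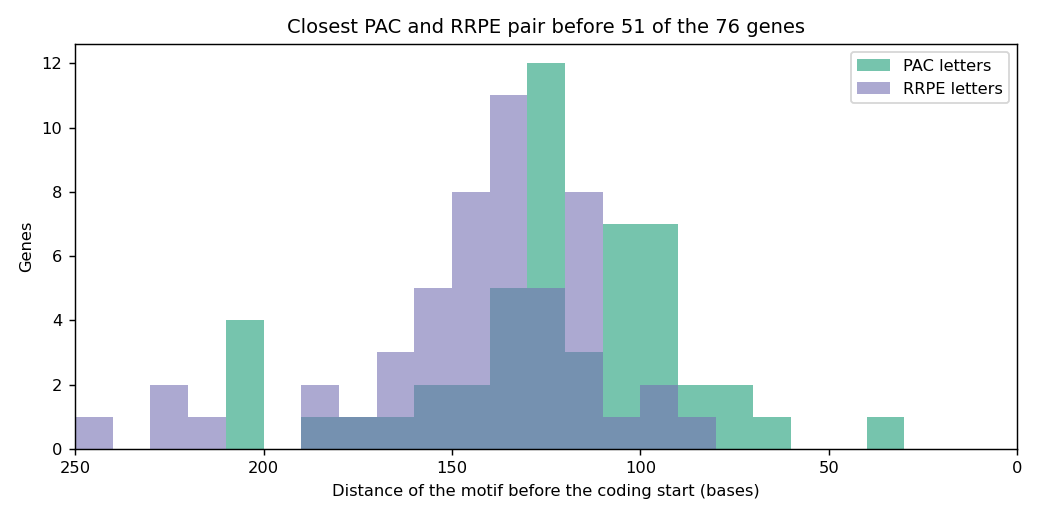
Histogram in bins of 10 bases of the distance from the coding start (x axis, bases before it) of the closest PAC and RRPE pair for the 51 genes that have both, with genes per bin on the y axis. The medians are 120 bases for PAC and 138 bases for RRPE.

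The libraries held 17373839 to 31525927 reads, and the 76 genes together took 1.46% to 2.002% of them. The reads of uL30 itself check the strain labels. The R28P-30B libraries had 930 RPL7A and 730928 RPL7B reads over 6 libraries, whereas the libraries under the R28P-30A label had 358251 RPL7A and 40519 RPL7B reads, close to the 295415 and 58984 of WT. The deletion marker URA3 had 47409 reads in R28P-30B, 11 in the libraries under the R28P-30A label and 3 in WT, which goes against that label, and LEU2 had 96411, 13091 and 6. The small nucleolar RNAs snR39 and snR59, chosen as strain checks, had 2616 and 563 reads in the libraries under the R28P-30A label. In WT they had 2596 and 631 reads, and in R28P-30B 1 and 1. The text therefore names the libraries under the R28P-30A label by that label and not as a strain. Ribosomal protein genes were taken by name only, as the 138 symbols made of RPL, RPS or RPP and a number. These genes held 22.1% and 23.0% of the reads of the WT light libraries. They held 18.1% and 19.1% of those labelled R28P-30A and 24.04% and 24.10% in R28P-30B. They took 14.3% to 17.2% of the reads of every total and heavy library. The 2 light libraries labelled R28P-30A were also the shallowest. The part of these differences in the results was not tested. The limma p-values set each difference against the spread between cultures of the same strain, pooled over the 3 strains. The libraries under the R28P-30A label therefore enter that spread in every comparison as fitted.

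In the total extracts of WT the 76 genes ranged from 25.6 to 783 TPM, and 63 of them lay within 2-fold of their median. Levels are given as TPM, read counts divided by coding length and scaled to a common library total, recomputed here, so that genes of different length can be compared. The median was 122 TPM, with a middle range of 85.1 to 165 TPM, against 57.7 TPM (28.9 to 118 TPM) over all 5686 genes tested, and 73 of the 76 lay above that overall median. NOP10, a small protein of the H/ACA particles that guide pseudouridylation, was the highest in this unit, at 827 and 738 TPM in the 2 WT cultures. That rank rests on division by its coding length of 177 nucleotides, the shortest of the members. NOP1, the methyltransferase of the box C/D particles (fibrillarin in other species), followed at 706 and 736 TPM. NOP56, a core protein of the same particles, was measured at 406 and 405 TPM. The lower NOP10 culture and the higher NOP1 culture were nearly level, whereas NOP56 lay below both genes in each WT culture.

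At the low end stood the 2 longest genes and RRP6. UTP20, with a coding length of 7482 nucleotides the longest member and a helical repeat protein of the small subunit processome, was at 23.4 and 27.7 TPM. UTP10, a UTP-A subunit of 5310 nucleotides, was at 37.9 and 40.2 TPM. RRP6, the nuclear exonuclease bound to the exosome, was at 54.0 and 58.1 TPM. Both cultures of UTP20 lay below both of UTP10, and these below both of RRP6. Coding lengths ran from 177 nucleotides (NOP10) to 7482, with a median of 1453.5 against 1212 for all genes tested. NOG2, a GTPase of late large subunit particles, was the only member whose coding sequence lies in 2 parts.

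**Figure D2:**
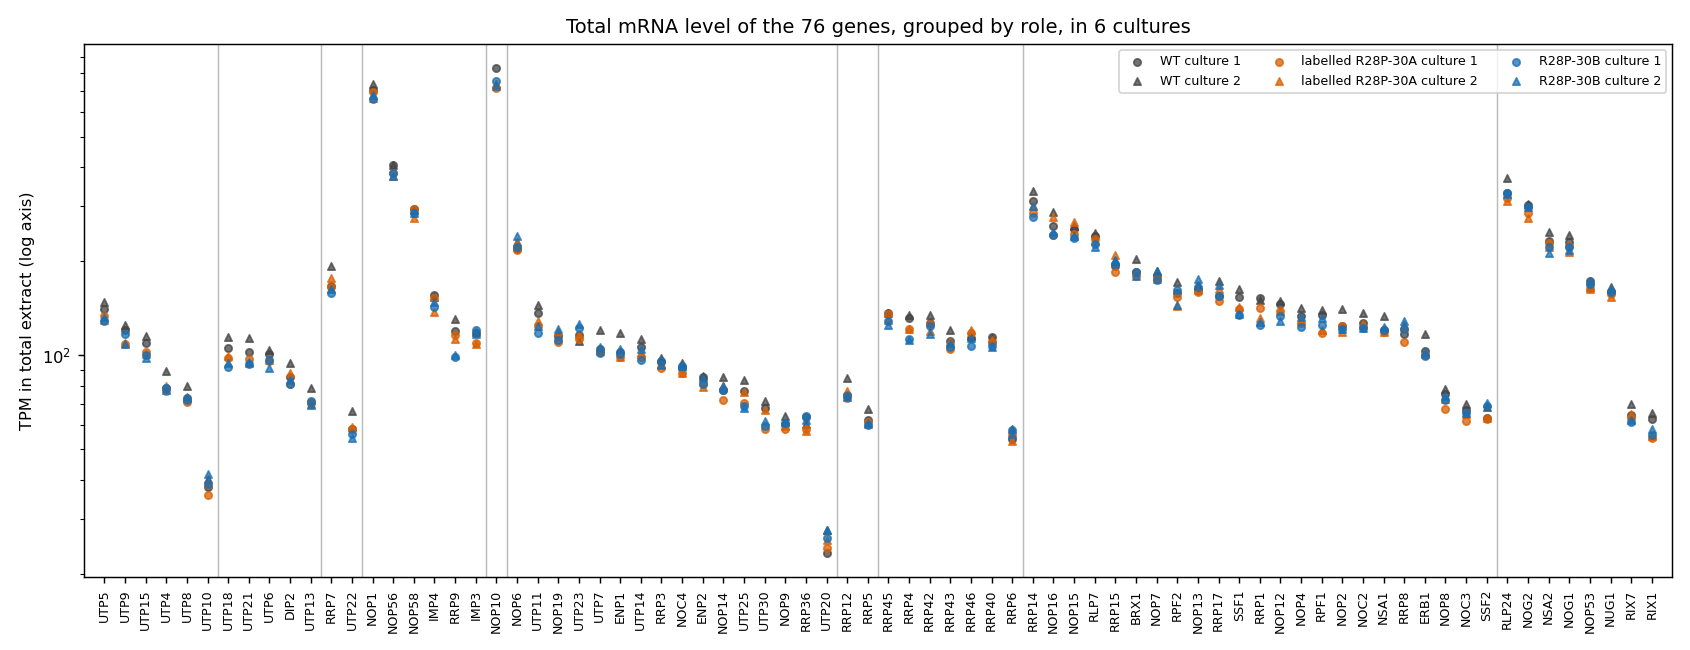
TPM in the total extract (y axis, log scale) of each of the 76 genes (x axis), grouped by role between grey lines and ordered by the WT mean within a role, with 1 point per culture and 6 cultures. The strains lie close together for most genes. UTP20 and UTP10 lie lowest and NOP10 and NOP1 highest.

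Levels within a complex were not equal. Of the UTP-A genes, UTP5 had 140 and 148 TPM in WT, against the 37.9 and 40.2 TPM of UTP10. Of the paralogs SSF1 and SSF2, which act in cutting the large subunit rRNA precursor, SSF1 had 154 and 163 TPM and SSF2 63.1 and 68.5 TPM. Reads that fit both SSF genes were kept at every valid position, so their levels are less certain than those of unique genes. The core exosome genes RRP4, RRP40, RRP42, RRP43, RRP45 and RRP46 stayed between 111 and 136 TPM in both WT cultures.

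Total extracts asked whether the mRNAs of the assembly factors differ in amount between strains. Few did. In R28P-30B, 7 of the 76 genes were lower than in WT and 0 were higher, at an adjusted p under 0.05 in limma, against 13.5% lower and 10.7% higher of all genes tested. The share of members that fell, 9.21%, was therefore no larger than the background. The median change of the members was -0.10 on the log2(TPM + 1) scale, against -0.05 over all genes. The summed level of the 76 genes was 11505 and 11992 TPM in WT, 10968 and 11081 TPM in R28P-30B, and 10960 and 11071 TPM in the libraries under the R28P-30A label. Both WT cultures were above all 4 others in this sum.

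The largest decrease was that of RRP9, a protein specific to the U3 particle. It stood at 120 and 130 TPM in WT, 116 and 113 TPM in the libraries under the R28P-30A label, and 98.8 and 99.97 TPM in R28P-30B, a log2 change of -0.33 (SE 0.07, limma adjusted p = 0.00117) in R28P-30B against WT. RRP1, an early large subunit factor, was at 153 and 150 TPM in WT and 125 and 128 TPM in R28P-30B (log2 -0.26, SE 0.07, limma adjusted p = 0.00587). RRP4, a cap protein of the exosome, was at 132 and 134 TPM in WT and 112 TPM in both R28P-30B cultures (log2 -0.24, SE 0.06, limma adjusted p = 0.00745). The WT and R28P-30B cultures did not overlap in these genes, which was a condition for naming the largest changes. That held for 48 of the 76 members. The share of all genes without overlap was not counted, so this number has no background to be read against.

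The other 4 genes that fell were UTP18 of the UTP-B complex (log2 -0.24), UTP25 (-0.23) and UTP11 (-0.21) of the small subunit processome, and SSF1 (-0.22). They belong to different complexes, and each complex had more members that did not pass. Counting only genes that the name rule matches, of the 5 UTP-B genes 1 fell and of the 6 box C/D and U3 genes 1. Of the 7 exosome genes 1 fell and of the 23 early large subunit genes 2. PWP2 of UTP-B, which the rule does not match, was also lower (log2 -0.20, SE 0.07, limma adjusted p = 0.0450). The count was 13 without WT culture 1, 3 without WT culture 2, 1 without R28P-30B culture 1 and 2 without R28P-30B culture 2. RRP9 passed in every one of these fits.

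Neither of the other comparisons of total extracts called a member by limma. In the libraries under the R28P-30A label against WT, 0 members passed in either direction, against 0.879% higher and 0.193% lower of all genes. At an unadjusted p under 0.05, 10 members were lower and 0 higher, against 8.79% of all genes in both directions together. By edgeR 0 members passed and by DESeq2 1, which was lower. Under edgeR, DESeq2 and the other alternatives, here and below, shares of all genes were not counted. In R28P-30B against the libraries under the R28P-30A label, 0 members passed, against 5.98% higher and 6.24% lower of all genes. At an unadjusted p under 0.05, 1 member passed, against 25.2% of all genes in both directions together. By edgeR 1 member was higher, and 1 passed by DESeq2. In the labelled R28P-30A comparison 73 of 76 members were below 0, with a median of -0.09, against -0.01 over all genes, and a lowest value of -0.22. Comparisons with WT share the WT libraries and are not independent.

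The fractions show how these mRNAs were distributed along the ribosome gradient. In WT the members spanned a wide range. The translation index is the CPM (read count scaled to library size) of the heavy fraction over that of the light fraction in the same culture. Its WT means ran from 0.171 to 3.55 over the 76 genes with a median of 0.803, against 0.860 for all genes tested (middle range 0.559 to 1.28). Of the members, 19 were higher in the heavy than in the light fraction and 44 lower (limma, adjusted p under 0.05), against 32.5% higher and 51.6% lower of all genes. This split rests on the scaling: with each ratio centred on its median gene it was 29 higher and 32 lower. The shares of all genes under centring were not counted.

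UTP14, which activates the helicase that removes U3, had the highest index. It stood at 86.0 and 115 CPM in the light and 333 and 370 CPM in the heavy fraction of the WT cultures, an index of 3.55 ± 0.46 (SD, n = 2 cultures) that exceeded 99.3% of all genes. NOP4, an RNA-binding factor of early large subunit particles, had 3.31 and 2.69 in the 2 cultures. NOP1 had 2.77 ± 0.015 (SD, n = 2), with 374 and 417 CPM in the light and 1039 and 1149 CPM in the heavy fraction. RRP14, an early nucleolar factor, had 2.16 ± 0.068 (SD, n = 2). The cultures of UTP14 and NOP4 overlap, and NOP4 and NOP1 overlap as well, so the order at the top is not resolved, whereas RRP14 was below all 3 in each culture.

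At the other end, NOP10 was at 347 and 348 CPM in the light and 58.5 and 60.5 CPM in the heavy fraction, an index of 0.171 ± 0.0037 (SD, n = 2), at the 1.31 percentile of all genes. IMP3, a U3 particle protein of 552 nucleotides, had 0.282 ± 0.009 (SD, n = 2). UTP6 of the UTP-B complex had 0.317 ± 0.015 (SD, n = 2) despite a coding length of 1323 nucleotides. RRP7 of UTP-C followed at 0.436 ± 0.072 (SD, n = 2), level with SSF1 at 0.438 ± 0.019 (SD, n = 2). These indices keep their order in both cultures down to UTP6.

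**Figure D3:**
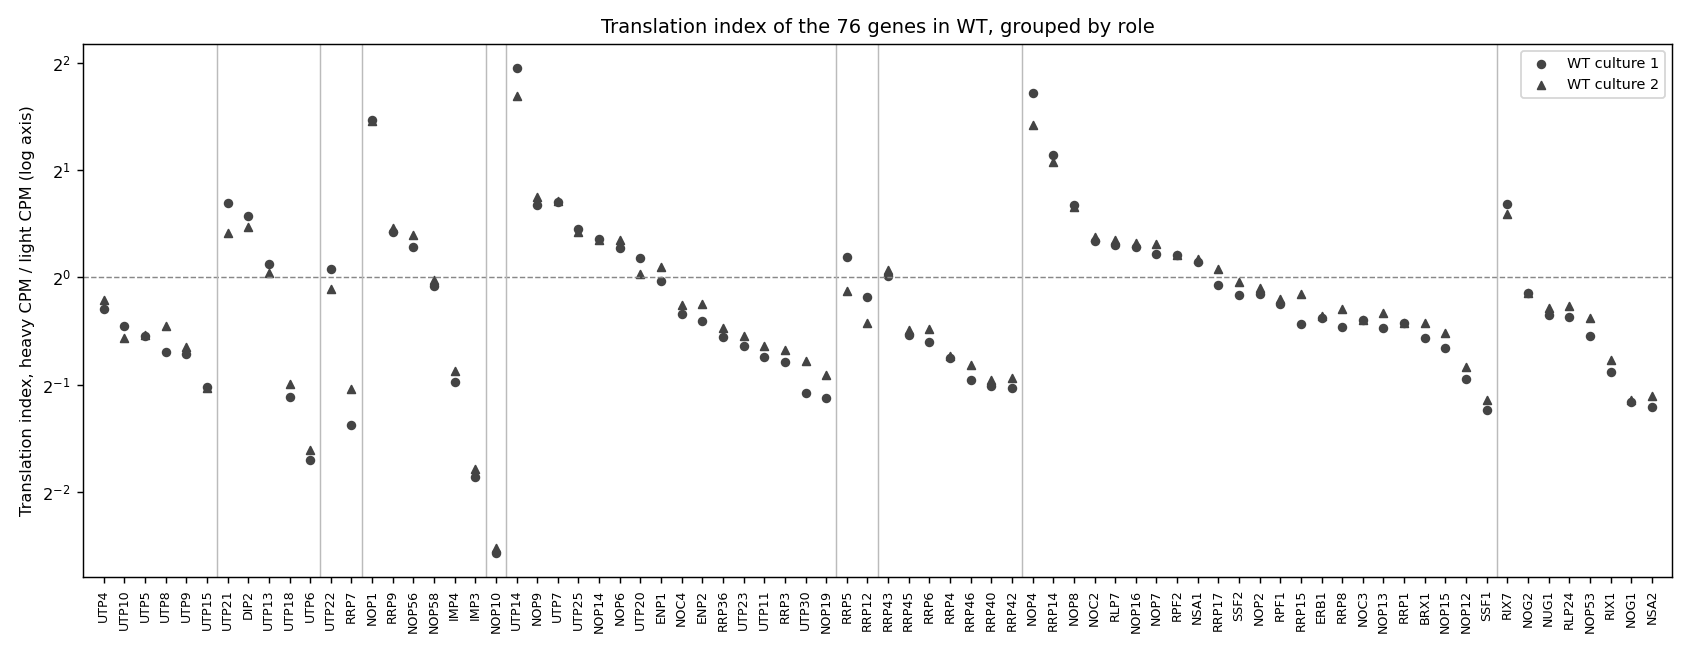
Translation index in WT (y axis, log scale, heavy CPM over light CPM) of the 76 genes (x axis), grouped by role between grey lines, with 1 point per culture. The dashed line marks equal CPM in both fractions. UTP14, NOP4, NOP1 and RRP14 lie highest and NOP10, IMP3 and UTP6 lowest.

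Genes of 1 complex did not share an index. UTP-B held UTP21 (1.48 ± 0.20, SD, n = 2) and DIP2 (1.44 ± 0.07, SD, n = 2) as well as UTP6. All 6 UTP-A genes among the members were lower in the heavy than in the light fraction, with a median log2 ratio of -0.56. So were 6 of the 7 exosome genes among the members, with a median of -0.74, against -0.22 over all genes. RRP43 (1.03 ± 0.03, SD, n = 2) was the exosome gene that did not pass. The index rose with coding length: across the 76 genes its log2 correlated with log2 length at Pearson's r = 0.43 and Spearman's rho = 0.41, and across all 5664 genes at 0.45 and 0.42. These correlations run across genes of the same libraries, which are not independent replicates.

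Against the total extract, 37 members were higher in the WT light fraction and 21 lower, beside 39.9% and 34.8% of all genes. In the heavy fraction, 3 were higher than in the total extract and 36 lower, beside 11.9% and 51.1%. Centred on the median gene the latter were 20 higher and 15 lower, and the median member stood at -0.16 against -0.21 for all genes. Without WT culture 1 or 2 the heavy fraction gave 21 or 25 calls in place of 39. The members with the highest index were low in the light fraction, whereas those with the lowest index were both high in the light and low in the heavy fraction. NOP10 stood at 172 and 148 CPM in the total extract and differed from it by 1.12 in the light and by -1.42 in the heavy fraction on the log2 scale. UTP6 differed by 0.82 and -0.84, IMP3 by 1.14 and -0.68, and RRP7 by 0.56 and -0.64. UTP14 fell from 335 and 345 CPM in the total to 86.0 and 115 CPM in the light fraction (log2 -1.78) and differed from it by 0.05 (SE 0.06) in the heavy fraction, which did not pass. IMP3 rose from 76.03 and 74.57 CPM to 166 CPM in both light libraries (log2 1.14), and RRP40 from 97.2 and 93.0 to 176 and 166 CPM (log2 0.85). NOP1 was higher in the heavy fraction than in the total extract (log2 0.42), as were NOP6 (0.34) and RLP7 (0.23). Under centring, edgeR and DESeq2 RRP1 and IMP4, lower by -0.16 and -0.18 in the heavy fraction, had changes of 0.02 to 0.05 in the opposite direction that did not pass.

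In R28P-30B the heavy to light ratio was higher for the longest genes and lower for some short ones. Of the 76 genes, 6 had a higher translation index than in WT and 2 a lower one (limma, adjusted p under 0.05), against 9.09% higher and 4.70% lower of all genes. The 6 were UTP22, RRP12, UTP10, UTP20, RRP5 and DIP2, with coding lengths of 2832 to 7482 nucleotides, and they include the 5 longest members. The 2 were RRP17 and RRP43, with 708 and 1185 nucleotides. The share of members called was no larger than the background in either direction. The rule of a mean index changed by more than log2 0.5 gave 4 higher and 1 lower, against 4.78% and 4.08% of all genes.

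UTP22, a scaffold protein of UTP-C (YGR090W, chrVII:662358-666071 in R64), had the largest increase. Its index was 1.06 and 0.928 in the WT cultures and 1.52 and 1.82 in those of R28P-30B (log2 0.75, SE 0.11, limma adjusted p = 0.0119). RRP12, a protein needed for export of both subunits (YPL012W, chrXVI:529723-533409), went from 0.882 and 0.745 to 1.22 and 1.41 (log2 0.69, SE 0.12, limma adjusted p = 0.0137). UTP10 (YJL109C, chrX:212000-217309) went from 0.730 and 0.674 to 0.995 and 1.16 (log2 0.62, SE 0.11, limma adjusted p = 0.0142). The cultures of WT and R28P-30B did not overlap in these genes, which was a condition for naming the largest changes. That held for 48 of the 76 members, and the share of all genes was not counted.

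UTP20 (YBL004W, chrII:227636-235117) had 1.14 and 1.02 in WT and 1.503 and 1.588 in R28P-30B (log2 0.52, SE 0.12, limma adjusted p = 0.0332). RRP5, an RNA-binding protein used for both subunits (YMR229C, chrXIII:725934-731123), had 1.14 and 0.916 against 1.38 and 1.51 (log2 0.50, SE 0.12, limma adjusted p = 0.0366). DIP2, a UTP-B subunit (YLR129W, chrXII:399657-402488), had 1.49 and 1.39 against 1.89 and 2.17 (log2 0.50, SE 0.10, limma adjusted p = 0.0195). Again the cultures did not overlap, as in most members. RRP17, an exonuclease of the large subunit pathway, went the other way, from 0.953 and 1.05 to 0.733 and 0.753 (log2 -0.43, SE 0.09, limma adjusted p = 0.0274). RRP43, an exosome ring subunit, went from 1.01 and 1.05 to 0.765 and 0.868 (log2 -0.34, SE 0.09, limma adjusted p = 0.0463).

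The number of calls depended on the cultures fitted. Without WT culture 2 or without R28P-30B culture 2, 0 members passed, 4 passed without R28P-30B culture 1, and 0 passed when all genes were fitted without a filter on low values (at an unadjusted p under 0.05 the fit as used had 14 higher and 8 lower). That unadjusted p was reached by 34.1% of all genes in both directions together. The count tests on recovered reads called more, with 11 higher and 7 lower in edgeR and 10 higher and 5 lower in DESeq2. The shares of all genes in these count tests were not counted. Without the libraries under the R28P-30A label the calls were again 6 higher and 2 lower.

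For the 6 genes with a higher index the light fraction changed and no heavy value passed. The light fraction is part of the index, and 7.27% of all genes were called higher in the heavy one. RRP43 changed by 0.11 in the light fraction, which did not pass, and by -0.23 in the heavy fraction, which did. In the light fraction 30 members were lower in R28P-30B than in WT and 6 higher, against 28.0% lower and 18.6% higher of all genes, and 22 lower and 16 higher after centring on the median gene. The 30 had a median coding length of 2154 nucleotides and the 6 one of 693. UTP22 was at 223 and 274 CPM in the WT light libraries and at 138 and 120 CPM in those of R28P-30B (log2 -0.94, SE 0.11, limma adjusted p = 0.000372). RRP12 went from 300 and 383 to 204 and 193 CPM (log2 -0.77). DIP2 went from 191 and 223 to 138 and 130 CPM (log2 -0.62), and UTP21, also of UTP-B, from 200 and 251 to 150 and 149 CPM (log2 -0.59). All were clear of WT in both cultures, which was a condition for naming the largest changes. The cultures did not overlap in 65 of the 76 members, and the share of all genes was not counted. Without R28P-30B culture 2 the count fell to 2 higher and 9 lower.

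The members that rose in the R28P-30B light fraction were short. NOP6, a small subunit factor of 678 nucleotides, rose from 179 CPM in both WT libraries to 249 and 253 CPM (log2 0.49, SE 0.10, limma adjusted p = 0.00506). NOP19, a small subunit factor of 591 nucleotides, rose from 122 and 117 to 141 and 153 CPM (log2 0.30), and NOP10 from 347 and 348 to 418 and 420 CPM (log2 0.27). RRP17, UTP23 and RRP40 were the other 3, with changes of 0.26, 0.24 and 0.19. Ribosomal protein genes took 24.04% and 24.10% of the reads of these light libraries against 22.1% and 23.0% in WT, and their part in these changes was not tested. Scaled without those genes, 7 members rose and 28 fell.

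The heavy fraction moved little. In R28P-30B 5 members were lower than in WT there and 0 higher, against 14.1% and 7.27% of all genes. They were RRP9, UTP25, UTP18, UTP11 and RRP43, of which all but RRP43 were also lower in the total extract. RRP9 had 246 and 260 CPM in WT and 198 and 199 CPM in R28P-30B (log2 -0.35, SE 0.08, limma adjusted p = 0.0070), and was the only one to pass after centring or in edgeR and DESeq2. The count was 1 without WT culture 1, 0 without WT culture 2, 2 without R28P-30B culture 1 and 8 in the fit without the libraries under the R28P-30A label. None of the 6 genes with a higher index was called in the heavy fraction. UTP10 had 188 and 199 CPM in WT and 196 and 231 CPM in R28P-30B.

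**Figure D4:**
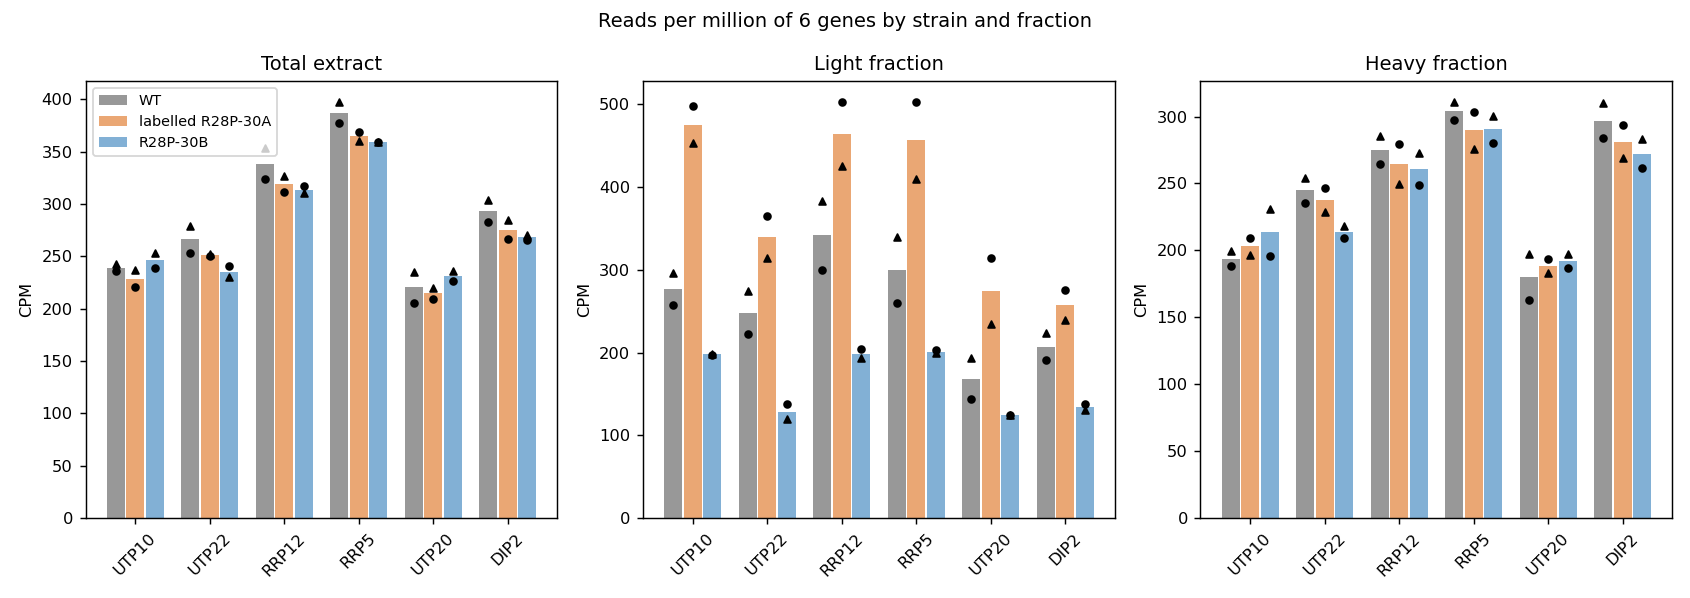
CPM (y axes, starting at 0) of UTP10, UTP22, RRP12, RRP5, UTP20 and DIP2 in the total extract, the light fraction and the heavy fraction, with bars for the mean of 2 cultures and points for culture 1 (circles) and culture 2 (triangles). In the light fraction each gene has its highest libraries under the R28P-30A label and its lowest in R28P-30B, as for UTP22 at 364 and 315 CPM, 223 and 274 CPM in WT, and 138 and 120 CPM.

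The libraries labelled R28P-30A differed from WT the other way. Of the 76 genes 13 had a lower translation index and 0 a higher one, against 20.7% lower and 3.60% higher of all genes, so the share of members (17.1%) did not exceed the background. The median log2 change was -0.13 over all genes and -0.22 over the members. Centred on the median gene, 6 were lower and 1 higher, and edgeR and DESeq2 gave 8 lower with 7 and 5 higher. The rule of log2 0.5 gave 8 lower and 0 higher, against 12% and 1.15% of all genes. Without WT culture 1 limma called 2 members and without R28P-30A culture 2 it called 7, all lower.

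RRP14, of 1305 nucleotides, had the largest decrease. Its index was 2.21 and 2.12 in WT and 1.496 and 1.07 in the libraries under the R28P-30A label (log2 -0.77, SE 0.15, limma adjusted p = 0.0117). UTP10 went from 0.730 and 0.674 to 0.421 and 0.435 (log2 -0.71, SE 0.11, limma adjusted p = 0.00617). RRP5 went from 1.14 and 0.916 to 0.603 and 0.673 (log2 -0.68, SE 0.12, limma adjusted p = 0.00913). UTP20 went from 1.14 and 1.02 to 0.615 and 0.780 (log2 -0.64, SE 0.12, limma adjusted p = 0.0108). All of these lay apart from WT in both cultures, which was a condition for naming the largest changes. That held for 57 of the 76 members, and the share of all genes was not counted.

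UTP14 (log2 -0.63), NOG2 (-0.54), RRP12 (-0.51), UTP22 (-0.50) and DIP2 (-0.39) also fell. NOG2 was steady in WT, at 0.902 in both cultures, and stood at 0.637 and 0.606 in the libraries under the R28P-30A label. UTP25, NOP14 and UTP9 of the small subunit pathway and NOC2 of the large one were the other 4, with changes of -0.38 to -0.39. The shortest of the 13 was RRP14 and their median length was 2700 nucleotides. Among the genes followed under each alternative, DIP2, UTP22, RRP12, UTP25 and NOC2 did not pass after centring, with log2 changes of -0.34 to -0.22.

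Of the 13 genes with a lower index, 12 were higher in the light fraction and none passed in the heavy fraction. The light fraction is part of the index by which these genes were picked. In the heavy fraction only 0.141% of all genes were called higher and 0.0353% lower, so few calls were possible. UTP25 was the exception in the light fraction, with 0.17 (limma adjusted p = 0.0777) there and -0.22 in the heavy fraction. NOG2 changed by 0.29 and -0.25, and RRP14 by 0.52 and -0.25. In the light fraction 24 members were higher in the libraries under the R28P-30A label and 4 lower, against 30.0% higher and 9.87% lower of all genes. The median of all genes was itself 0.10 higher on the log2 scale, and the split turned over with the scaling, to 7 higher and 18 lower after centring and 12 and 12 without ribosomal protein genes. UTP10 rose from 258 and 296 to 498 and 453 CPM (log2 0.78, SE 0.08, limma adjusted p = 0.000605). UTP20 rose from 144 and 193 to 315 and 235 CPM (log2 0.71), RRP5 from 260 and 339 to 503 and 410 CPM (log2 0.61), and RRP14 from 216 and 263 to 342 CPM in both libraries (log2 0.52). In all 4 genes both of these libraries lay above both WT libraries, since naming the largest changes required libraries that do not overlap. That held for 57 of the 76 members, and the share of all genes was not counted.

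The 4 lower members were NOG1, a GTPase of large subunit particles, RRP4, IMP4 of the U3 particle and RRP1. NOG1 went from 788 and 756 to 692 and 626 CPM (log2 -0.23, SE 0.07, limma adjusted p = 0.0251), and the others changed by -0.20, -0.18 and -0.18. Without WT culture 1 the light fraction called 9 members, all higher, and 18 without R28P-30A culture 2. The share of ribosomal protein reads, 18.1% and 19.1% in these light libraries against 22.1% and 23.0% in WT, moved with these values, and its part was not tested. In the heavy fraction 0 members passed in either direction, against 0.141% higher and 0.0353% lower of all genes. At an unadjusted p under 0.05, 8 members were lower and 0 higher, against 9.98% of all genes in both directions together. In edgeR and in DESeq2 0 members passed. Without R28P-30A culture 1 the heavy count was 3, all lower.

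Set directly against each other, R28P-30B and the libraries under the R28P-30A label had the most index calls. Of the 76 genes, 22 had a higher index in R28P-30B and 2 a lower one, against 29.5% and 13.1% of all genes. After centring they were 15 higher and 10 lower. The rule of log2 0.5 gave 14 higher and 0 lower, against 20.5% and 4.52%. UTP10 stood at 0.995 and 1.16 in R28P-30B and at 0.421 and 0.435 in the libraries under the R28P-30A label, a log2 difference of 1.33 (SE 0.11, limma adjusted p = 0.000262). UTP22, RRP12, RRP5, UTP20, UTP14, RRP14 and DIP2 differed by 1.25, 1.20, 1.18, 1.16, 1.02, 0.97 and 0.89. In these 8 genes both cultures of R28P-30B lay above both cultures under the R28P-30A label. The cultures of these groups did not overlap in 41 of the 76 members, and the share of all genes was not counted.

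By role, the higher members were 4 of the 6 UTP-A genes, 3 of the 5 UTP-B genes, UTP22 of UTP-C, both RRP5 and RRP12, 6 of 16 other small subunit factors, 4 of 23 early and 2 of 8 late large subunit factors. None of the 6 box C/D and U3 genes passed. The 2 lower members were the exosome genes RRP40, at 0.423 and 0.421 against 0.543 and 0.529, and RRP42, at 0.453 and 0.451 against 0.592 and 0.552. Their changes were -0.35 (SE 0.10, limma adjusted p = 0.0210) and -0.34 (SE 0.10, limma adjusted p = 0.0259). Both have coding lengths under 800 nucleotides.

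In the light fraction of this pair 36 members were lower in R28P-30B and 6 higher, against 42.9% lower and 21.6% higher of all genes, and 22 lower and 26 higher after centring. Centring gave RLP7 and RRP7, lower by the fit as used, changes of 0.01 and 0.00 that did not pass. UTP22 was at 364 and 315 CPM in the libraries under the R28P-30A label and 138 and 120 CPM in R28P-30B (log2 -1.40, SE 0.11). NOP10 rose from 304 and 323 to 418 and 420 CPM (log2 0.42, SE 0.06). In the heavy fraction 0 members passed, against 3.58% higher and 4.41% lower of all genes. At an unadjusted p under 0.05, 1 member passed, against 25.2% of all genes in both directions together. In edgeR and in DESeq2 0 members passed. Leaving out any culture gave 16 to 24 calls for the index and 28 to 41 for the light fraction.

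The index change of the members varied with their length. In R28P-30B against WT, the change in log2 index correlated with log2 coding length at r = 0.82 and rho = 0.85 over the 76 genes, and at 0.52 and 0.59 over all 5664. Without the 5 longest members it was r = 0.77 and rho = 0.82 over 71 genes. In the light fraction the members had r = -0.81, in the heavy fraction 0.05 and in total extracts -0.02. In the libraries under the R28P-30A label the index gave r = -0.42 and the light fraction 0.47, but without the 5 longest members only -0.18 and 0.18. The points share their libraries and the values are descriptions.

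Within single cultures, the slope of log2 index on log2 length over the 76 genes was 0.41 and 0.33 in WT, 0.22 and 0.31 in the libraries under the R28P-30A label, and 0.61 and 0.63 in R28P-30B. Over all genes the slopes were 0.42 and 0.36, 0.28 and 0.30, and 0.53 and 0.54. Both R28P-30B cultures lay above the others in both sets, and both cultures labelled R28P-30A below WT. With 2 cultures per strain an exact permutation test of 1 value between 2 strains cannot reach 0.05.

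**Figure D5:**
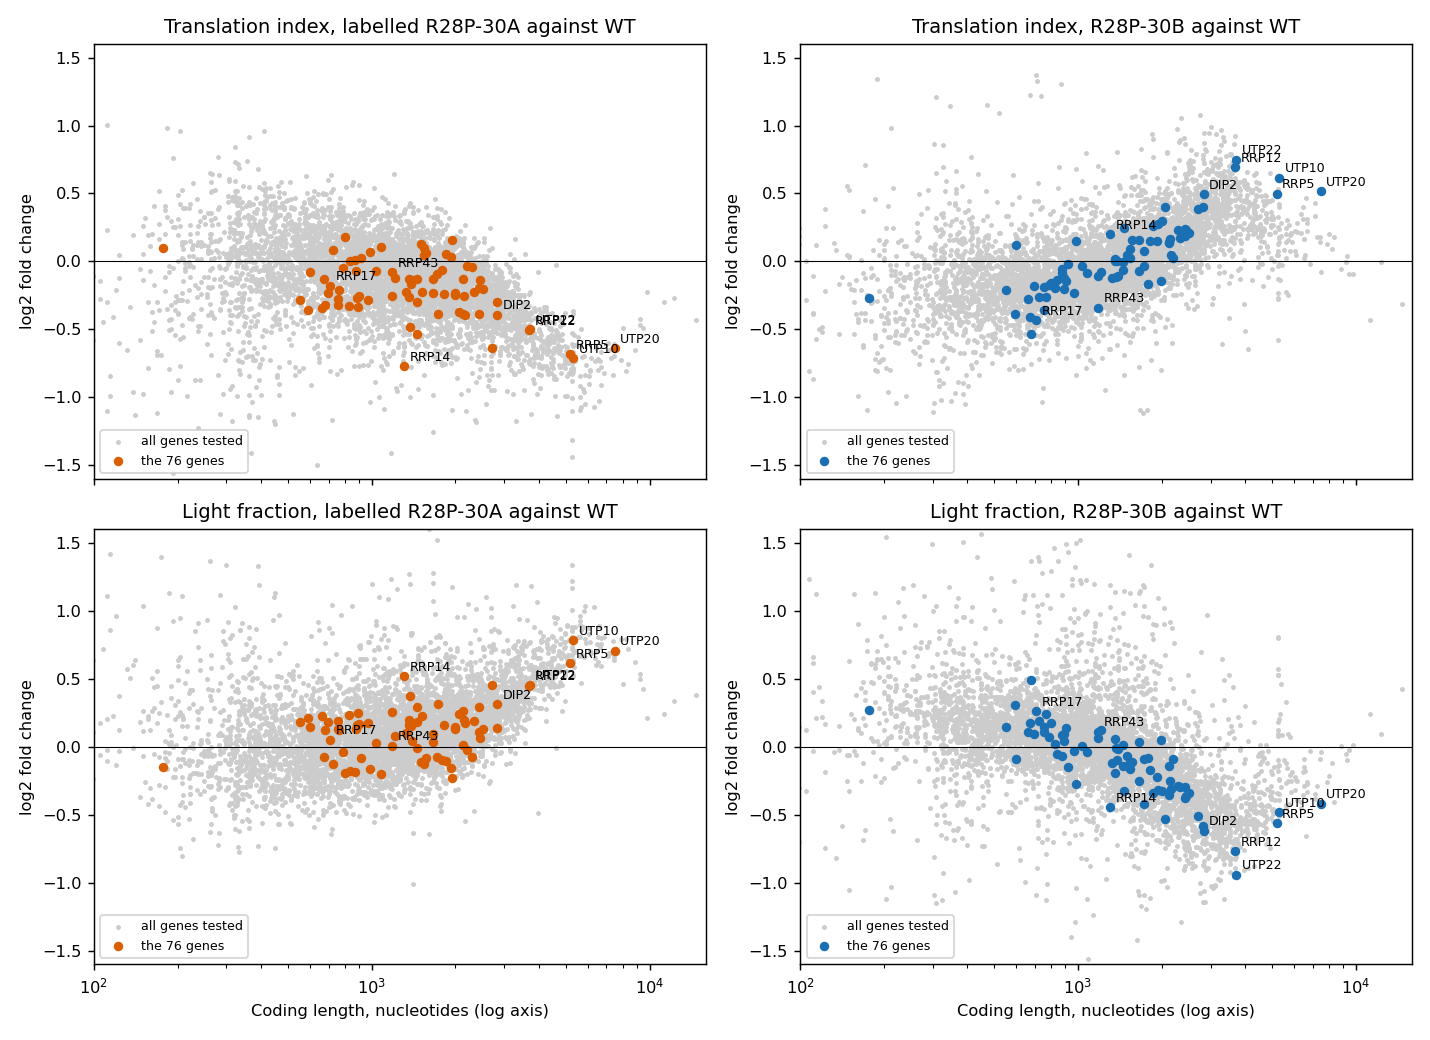
Log2 fold change against WT (y axes, cut at 1.6 in both directions, which leaves out 3 to 21 genes a panel and no member) by coding length (x axes, log scale) of the 76 genes in colour and of all 5664 genes in grey, for the translation index and the light fraction of the libraries under the R28P-30A label and of R28P-30B. In R28P-30B the members rise with length in the index (r = 0.82) and fall in the light fraction (r = -0.81), whereas RRP14 lies well below genes of its length under the R28P-30A label.

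Other factors of the same pathway, whose names the rule does not match, were read from a list of 90 genes. In total extracts 13 of 90 were lower in R28P-30B and 0 higher, with a median of -0.09 against -0.05 over all genes, of which 13.5% were lower and 10.7% higher. For the index in R28P-30B, 14 of 90 were higher and 1 lower, with a median of 0.03 against -0.04 over all genes, of which 9.09% were higher and 4.70% lower. The 14 had coding lengths of 2304 to 5295 nucleotides, and MTR4, the helicase that feeds the exosome, led with log2 0.56 (SE 0.11, limma adjusted p = 0.0188). BMS1, a GTPase of the small subunit processome, and PWP2 of UTP-B followed at 0.56 each. In the libraries under the R28P-30A label 16 of 90 were lower and 1 higher, beside 20.7% lower and 3.60% higher of all genes, so the share of lower genes did not exceed the background. The largest decrease there was that of CGR1, with 363 nucleotides the shortest of the 90 (log2 -0.98, SE 0.24, limma adjusted p = 0.0232). URB1, of 5295 nucleotides and in the large subunit pathway, fell by 0.81 on the log2 scale under that label and was higher by 0.40 in R28P-30B. The change in index correlated with length at r = 0.67 in R28P-30B and -0.49 in the libraries under the R28P-30A label over the 90 genes. MDN1, the giant ATPase of 14733 nucleotides and the longest of them, fell in the libraries under the R28P-30A label (log2 -0.43, SE 0.09, limma adjusted p = 0.0145) and stood at -0.31 (SE 0.09, limma adjusted p = 0.0583) in R28P-30B, which did not pass.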

How the data were processed

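Libraries were made from poly(A) RNA with a directional kit, and per the labels and the study's methods the authors aligned with STAR to build R64, retained every valid mapping position and assigned reads to genes with featureCounts (versions not given in the sources used here). The authors deposited CPM values, read counts scaled to library size, for 7126 genes in 18 libraries. Column names give the strain by a letter, and A and B were taken as R28P-30A and R28P-30B. All values (100%) lay within 0.05 of a whole read, so reads were recovered, and TPM was recomputed from them with the coding lengths of RefSeq R64 (6013 genes). A deposited TPM table without 2 of the libraries was not used. Reads kept at several positions can raise genes with close copies.

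limma 3.58.1 (R 4.3.3) was fitted with a variance trend and the spread of the 3 strains shared, on log2(TPM + 1) of total extracts for genes whose 6 total extracts averaged over 1 TPM, and on log2(CPM + 0.1) or the ratio of such values per culture for genes above 1 TPM in WT with reads in all 12 fraction libraries. Calls were made at a Benjamini-Hochberg adjusted p under 0.05 over all genes. Where the translation index is compared by size alone, the mean index of 2 cultures had to differ by more than log2 0.5. No paired term was used. Alternatives were other pseudocounts, no filter, subtraction of the median gene, library sizes without the 138 ribosomal protein genes, edgeR 4.0.16, DESeq2 1.42.0, a replicate block, no trend, leaving out each culture and, added after seeing the data, leaving out the libraries under the R28P-30A label. The fits were tested on simulated data. Tables were handled in Python 3.11.15 with pandas 2.3.3, and figures drawn with matplotlib 3.10.9.

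Members, gene lists and tests were chosen with earlier results of these data known. Genes were named by a rule: the 4 largest called changes in each direction per comparison with cultures that do not overlap, 28 representatives of the roles, the 3 most and least abundant and the 3 longest and shortest, of which 45 were distinct. Others were named where a small count was spelled out, or as genes chosen after their values were seen.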

Additional observations from a re-analysis of the deposited data

Results flagged for a closer look

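The index of 6 members was called in R28P-30B against the R28P-30A label, with each also called against WT in opposite directions. The difference adds these 2 changes from the same WT cultures, so its call is not separate support. Of all 5664 genes, 29.5% were higher in R28P-30B than under the label. Against WT, 20.7% were lower under the label and 9.09% higher in R28P-30B. How many of all genes meet the 3 conditions together was not counted. In R28P-30B against the libraries under the R28P-30A label the log2 differences were 1.33 for UTP10, 1.25 for UTP22, 1.20 for RRP12, 1.18 for RRP5, 1.16 for UTP20 and 0.89 for DIP2 (limma, adjusted p of 0.000262 to 0.000326). The uL30 and URA3 reads of the latter libraries go against their label.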

How the results depend on the processing

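Of the values of single genes, 2144 kept direction and call under an alternative, 406 kept direction but no longer passed, and 8 changed sign. After centring on the median gene RLP7 and RRP7 stood at 0.0122 and 0.0037 for light fractions of R28P-30B against the R28P-30A label. For WT heavy against total, RRP1 and IMP4 stood at 0.0467 and 0.0261 after centring, 0.0396 and 0.019 in edgeR, and 0.0438 and 0.0231 in DESeq2. The cause was not tested. Of the counts of members, 158 stayed within 1.5 times and 50 did not. Shares of all genes were not counted under the alternatives, so these counts have no background.

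For total extracts of R28P-30B against WT (7 called), leaving out ribosomal protein reads gave 11. Total extracts under the R28P-30A label against WT gave 1 in DESeq2. Total extracts of R28P-30B against that label gave 1 after centring, 1 without ribosomal protein reads, 1 in edgeR and 1 in DESeq2. The index under the R28P-30A label (13 called) gave 3 without a filter and 7 after centring. The index of R28P-30B (8 called) gave 14 with a pseudocount of 1 CPM, 0 without a filter, 18 in edgeR and 15 in DESeq2. Light fractions under the R28P-30A label (28 called) gave 16 without a variance trend. Heavy fractions of R28P-30B (5 called) gave 1 after centring, 1 without a trend, 1 in edgeR, 1 in DESeq2 and 8 without the libraries under the R28P-30A label, an alternative chosen after seeing the data. By size alone, the R28P-30A label (8 past log2 0.5) gave 5 after centring, 5 without ribosomal protein reads, 0 at log2 1 and 2 where all 4 pairs of cultures had to pass. R28P-30B gave 0 at log2 1 and 1 over all 4 pairs, and R28P-30B against the label gave 6 at log2 1.

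Leaving out 1 culture gave 1 to 13 calls for total extracts of R28P-30B, 2 to 13 for the index under the R28P-30A label, 0 to 8 for the index of R28P-30B, 9 to 21 and 11 to 33 for the light fractions of each against WT, 0 to 3 and 0 to 5 for the heavy fractions, 21 to 25 for WT heavy against total, and 3 to 11 past log2 0.5 for R28P-30B. Where 1 culture remains in a strain, it is assumed to vary like the others.

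Correlations between strains of the differences between culture 1 and culture 2 ran from -0.442 to 0.196. The numbers were treated as names of cultures only, and these correlations do not settle whether same-numbered cultures share an effect. A fit with the replicate block gave 14 calls for total extracts of R28P-30B against WT, 1 for R28P-30B against the R28P-30A label, 14 for light fractions under that label and 8 for heavy fractions of R28P-30B.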
